A study of Mus musculus with 2 samples.

Results

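Elastic fibers were followed here through 10 genes, namely elastin (*Eln*), the fibrillins *Fbn1* and *Fbn2*, the fibulin genes *Fbln2*, *Fbln5*, *Efemp1* and *Efemp2*, and the microfibril protein genes *Mfap2*, *Mfap4* and *Mfap5*. They were taken by gene symbol from the 24421 rows of the count table, and each of the 10 had 1 row. RNA-Seq had been performed on 1 library of primary chondrocytes and 1 library of primary dermal fibroblasts. The chondrocytes came from the rib cartilage of newborn mice, were released with collagenase and were used within 2 passages. The dermal fibroblasts came from collagenase-digested dorsal skin of newborn mice and served the study as the nonchondrocytic control. No agent, transgene or deletion is named for either library, and the strain and genotype of the mice and the number of animals pooled are not given in the sources used here.

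The libraries held 18788599 counts for chondrocytes and 17563724 counts for dermal fibroblasts. Levels are given as CPM, the count of a gene relative to the size of its library, scaled by TMM, an edgeR method that sets library sizes so that most genes show no difference, and the folds are ratios of these levels. With 1 library per cell type no difference has a replicate check and no test was made. Each fold has a 95% counting interval, which covers counting error only and describes these libraries. Fewer cells of a type and less RNA per cell cannot be told apart in such bulk samples. Most markers matched the labels. All 12 chondrocyte markers in the table were over 2-fold higher in chondrocytes, among them *Col2a1*, which had 1447098 counts against 0. Of 10 dermal fibroblast markers, 8 were over 2-fold higher in dermal fibroblasts. The most abundant was *Col1a1*, with 322379 counts there and 39143 in chondrocytes. Within 2-fold lay *Prrx1*, at 1.42-fold toward dermal fibroblasts, and *Lum*, at 1.14-fold toward chondrocytes.

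An elastic fiber has a core of crosslinked elastin laid on a scaffold of microfibrils. Microfibrils are polymers of fibrillin that carry small associated glycoproteins and tether latent TGF-β and BMPs, and they also occur without elastin. Fibulins bind both tropoelastin and fibrillin and help to place and crosslink the elastin. Dermal fibroblasts build the elastic network of the skin, whereas hyaline cartilage of the ribs is poor in elastic fibers and has microfibrils around its cells and in the perichondrium.

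Most of these genes were more abundant in dermal fibroblasts, where 8 of the 10 exceeded their chondrocyte level by over 2-fold. *Eln* was over 2-fold higher in chondrocytes, and *Efemp2* lay within 2-fold. Of the 17718 genes with a count in at least 1 library, 13.9% were over 2-fold higher in dermal fibroblasts and 10.7% in chondrocytes. Among the 11162 genes with at least 100 counts in 1 library, a class that holds all 10 genes, these shares were 13.3% and 8.79%. The median log2 fold of the 10 genes, dermal fibroblasts over chondrocytes, was 1.84, beside a median of 0.0035 over the 14291 genes with at least 10 counts. Together the 10 genes took 37699 counts in chondrocytes and 126526 counts in dermal fibroblasts, or 0.201% and 0.720% of the library. The scaled sums, 2103 and 6873 CPM, differed 3.27-fold (interval 3.23 to 3.31). *Fbln2* made up 46.2% of the sum in dermal fibroblasts. Without it the fold of the summed counts was 1.91 (interval 1.88 to 1.93), and this sum was formed after the values were seen.

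**Figure D1:**
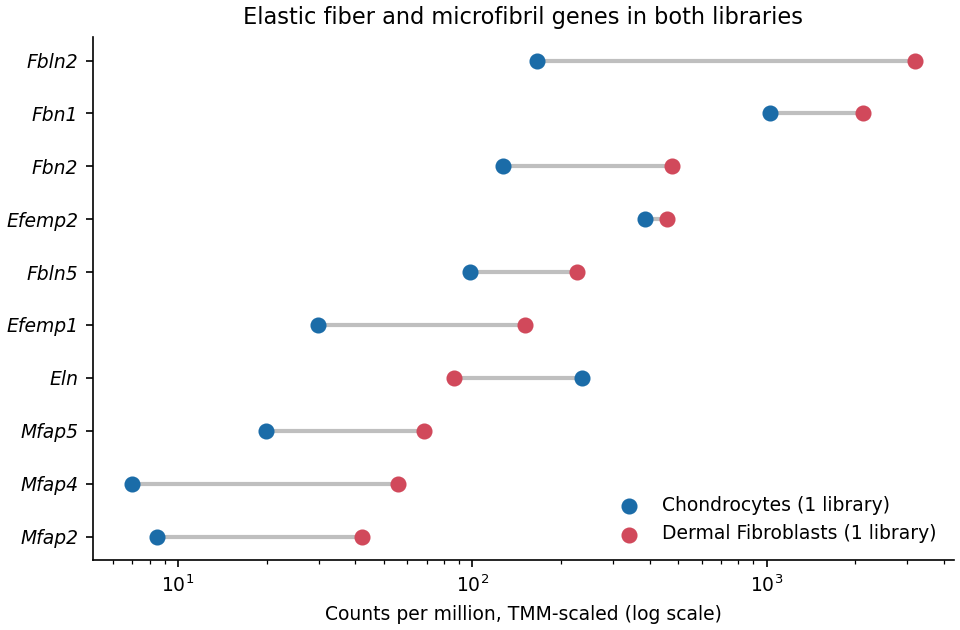
TMM-scaled CPM (log axis) of the 10 genes, with 1 point per library and a line joining the points of a gene. *Eln* is the gene whose chondrocyte point lies to the right, at 235 against 86.6, and *Fbln2* has the widest gap, 165 against 3178.

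*Eln* encodes tropoelastin, the soluble subunit that is crosslinked into the elastic core (chromosome 5 of GRCm38, 134702595 to 134747368). Chondrocytes gave 4210 counts of *Eln* and dermal fibroblasts gave 1595, or 235 and 86.6 scaled CPM. It was thus 2.71-fold higher in chondrocytes (interval 2.56 to 2.87), the opposite direction to the other 9 genes. The fold stayed between 2.47 and 2.95 under the alternative scalings and floors. Of the 11162 genes with at least 100 counts, 94.5% had a larger fold toward dermal fibroblasts. In the RefSeq annotation the span of *Eln* overlaps that of *Gm30003*, which had no row under that symbol in the count table.

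The counts of *Eln* were also set against those of its partners within a library, a ratio that does not depend on the scaling and was chosen after the values were seen. For each count of *Eln* there were 4.37 counts of *Fbn1* in the chondrocyte library and 24.6 in that of dermal fibroblasts, a 5.62-fold difference of the ratio (interval 5.29 to 5.97). Each count of *Eln* went with 0.703 counts of *Fbln2* in chondrocytes but 36.7 in dermal fibroblasts, a 52.2-fold difference (interval 48.7 to 55.9). For *Fbln5* the values were 0.417 and 2.61, a 6.25-fold difference (interval 5.77 to 6.77). For all 3 partners the chondrocyte library held more elastin reads per partner read than the dermal fibroblast library did.

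*Fbn1* encodes fibrillin-1, the main structural protein of microfibrils after birth (chromosome 2, 125300594 to 125506485). It gave 18410 counts in chondrocytes against 39182 in dermal fibroblasts, or 1027 and 2128 scaled CPM. It was abundant in both libraries, ranking 88th of the 24421 rows in chondrocytes and 29th in dermal fibroblasts. The fold was 2.07 (interval 2.04 to 2.11), barely over the threshold, and with scaling to *Actb* it was 1.90, below 2-fold.

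*Fbn2* encodes fibrillin-2, which is known mainly from the microfibrils of embryonic tissue (chromosome 18, 58008623 to 58210572). Its counts were 2281 in chondrocytes and 8785 in dermal fibroblasts, or 127 and 477 scaled CPM. The fold was 3.75 (interval 3.58 to 3.93), larger than that of *Fbn1*. *Fbn2* accordingly took 11.0% of the counts of both fibrillins in chondrocytes (Clopper-Pearson interval 10.6 to 11.5) and 18.3% in dermal fibroblasts (interval 18.0 to 18.7). The ratio of the folds was 1.81 (interval 1.72 to 1.90). Fibrillin-1 was the predominant fibrillin transcript in each cell type, with 8.07 counts per count of *Fbn2* in chondrocytes and 4.46 in dermal fibroblasts. The RefSeq span of *Fbn2* overlaps that of *Gm41741*, which had no row under that symbol in the count table. The longest identical stretch between the annotated transcripts of the fibrillins was 26 bases, the longest of the 45 pairs among the 10 genes.

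*Fbln2* encodes fibulin-2, a basement membrane and elastic fiber glycoprotein that binds fibrillin-1 and elastin (chromosome 6, 91212460 to 91272540). Of its reads, 2959 came from chondrocytes, against 58499 from dermal fibroblasts, or 165 and 3178 scaled CPM. It was the 13th most abundant row of the dermal fibroblast library and the 993rd of the chondrocyte library. The difference was 19.2-fold (interval 18.6 to 20.0), the largest of the 10 genes, and stayed between 17.7 and 21.1 under the alternatives. Of the 11162 genes with at least 100 counts, 0.815% had a larger fold toward dermal fibroblasts.

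*Fbln5* encodes fibulin-5, which binds tropoelastin, lysyl oxidase-like proteins and integrins during elastic fiber assembly (chromosome 12, 101746565 to 101819119). It had 1755 and 4157 counts, or 97.9 and 226 scaled CPM, a fold of 2.31 (interval 2.18 to 2.44). Its fold was close to that of *Fbn1*, and the ratio of the folds was 1.11 (interval 1.05 to 1.18).

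*Efemp1* encodes fibulin-3, a matrix glycoprotein of elastic tissues such as fascia (chromosome 11, 28853154 to 28926743), and *Efemp2* encodes fibulin-4, which recruits lysyl oxidase to tropoelastin (chromosome 19, 5473946 to 5482520). *Efemp1* gave 535 counts in chondrocytes against 2788 in dermal fibroblasts, or 29.8 and 151 scaled CPM, a 5.07-fold difference (interval 4.62 to 5.58). *Efemp2* had 6914 and 8452 counts, or 386 and 459 scaled CPM, a fold of 1.19 (interval 1.15 to 1.23). *Efemp2* was the gene of the group with the smallest difference, higher in dermal fibroblasts by more than the counting error, and its fold lay between 1.09 and 1.31 under the alternatives. *Efemp1* made up 7.18% of the counts of this pair in chondrocytes (interval 6.61 to 7.79) and 24.8% in dermal fibroblasts (interval 24.0 to 25.6). The ratio of the folds was 4.26 (interval 3.87 to 4.70), so the balance between these related fibulins differed between the libraries while *Efemp2* stayed the more abundant.

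The DNA before the start sites of *Efemp1* and *Efemp2* is shown because, of the 3 related pairs compared here, these genes differed most in their folds. Each line runs 5′ to 3′ from base -250 to base -52 before an annotated start. The windows are chr11:28852955-28853153 and chr19:5473696-5473894 in RefSeq GRCm38.p6, both on the plus strand. The *Efemp1* start used lies inside the span given above, so its window ends at the base just before that span. The *Efemp2* start used is the first base of its span. The table held 1 window for *Efemp1* and 3 for *Efemp2*, of which the one outside the annotated span of the gene is printed. Capitals mark a GC box (GGGCGG, or CCGCCC on the other strand) or an AP-1 motif (TGANTCA).
Efemp1: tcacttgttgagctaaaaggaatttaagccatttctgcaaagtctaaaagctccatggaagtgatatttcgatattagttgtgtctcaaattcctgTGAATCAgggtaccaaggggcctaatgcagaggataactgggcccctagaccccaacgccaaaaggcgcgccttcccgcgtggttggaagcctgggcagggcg
Efemp2: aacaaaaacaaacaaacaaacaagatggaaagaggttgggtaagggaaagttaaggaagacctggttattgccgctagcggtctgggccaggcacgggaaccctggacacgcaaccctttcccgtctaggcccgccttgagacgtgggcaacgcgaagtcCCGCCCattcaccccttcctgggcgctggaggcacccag
The *Efemp1* window holds 1 AP-1 motif and 0 GC boxes, and the *Efemp2* window holds 1 GC box and 0 AP-1 motifs. No TATAAA or AACAAT, the latter a SOX-type motif, was found on either strand of these windows. Bases nearer the start than -52 lie outside the windows and were not searched, so whether TATAAA occurs there was not tested. Among 32851 windows of the same length before mouse start sites, 24.4% hold a GC box, 5.55% an AP-1 motif, 9.11% TATAAA and 7.94% AACAAT. G and C make up 49.7% of the *Efemp1* window and 57.3% of the *Efemp2* window. The other *Efemp2* windows, which lie within the gene, hold 1 and 3 GC boxes, with 71.4% and 78.4% G and C. These matches describe the letters only.

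**Figure D2:**
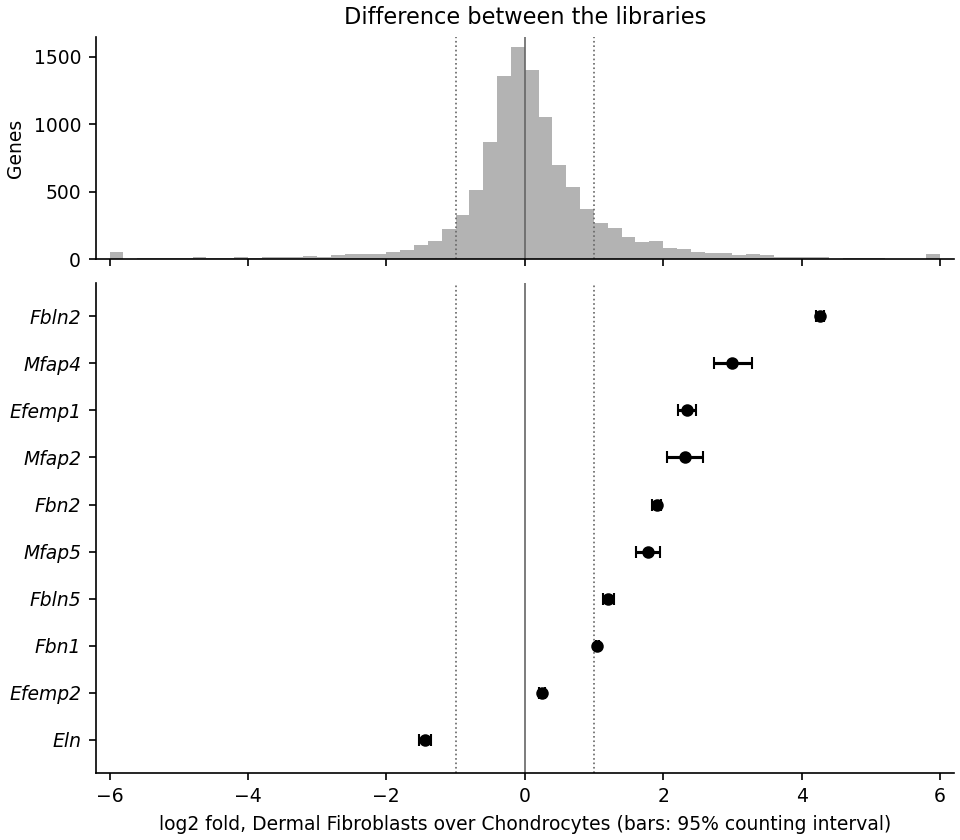
log2 folds, dermal fibroblasts over chondrocytes, of the 11162 genes with at least 100 counts in 1 library as a histogram (upper panel, number of genes, values beyond 6 placed at the limits) and of the 10 genes as points with 95% counting intervals (lower panel), with dotted lines at 2-fold. *Eln* lies left of the lower dotted line, *Efemp2* between the lines, *Fbn1* just right of the upper line and *Fbln2* farthest to the right.

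*Mfap2* and *Mfap5* encode MAGP-1 and MAGP-2, small glycoproteins bound along fibrillin microfibrils, and *Mfap4* encodes a fibrinogen-domain protein that binds elastin and collagen. These genes had the fewest counts of the 10 in each library. *Mfap4* (chromosome 11, 61485431 to 61488708) gave 125 counts in chondrocytes against 1029 in dermal fibroblasts, or 6.97 and 55.9 scaled CPM, an 8.01-fold difference (interval 6.65 to 9.73).

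*Mfap2* (chromosome 4, 141010424 to 141015976) had 152 and 774 counts, or 8.48 and 42.0 scaled CPM, a 4.96-fold difference (interval 4.16 to 5.94). *Mfap5* (chromosome 6, 122513584 to 122529290) had 358 and 1265 counts, or 20.0 and 68.7 scaled CPM, a 3.44-fold difference (interval 3.06 to 3.88). All 3 genes were higher in dermal fibroblasts, and the whole interval lay beyond 2-fold for each. The MAGP genes differed less from each other than the fibulin-3 and fibulin-4 genes did. *Mfap2* took 29.8% of the counts of both MAGP genes in chondrocytes (interval 25.9 to 34.0) and 38.0% in dermal fibroblasts (interval 35.8 to 40.1). The ratio of their folds was 1.44 (interval 1.17 to 1.78). *Mfap2* has the shorter transcript, and per kilobase of exon its share was 55.7% and 64.5%, so which MAGP gene was more abundant depended on the correction for length.

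From the highest fold toward dermal fibroblasts to the lowest, the order was *Fbln2*, *Mfap4*, *Efemp1*, *Mfap2*, *Fbn2*, *Mfap5*, *Fbln5*, *Fbn1*, *Efemp2* and *Eln*. This order cannot change with the scaling, since a scaling moves all folds together. Of the 9 neighbouring pairs, the counting interval of the ratio of the folds included 1 for *Efemp1* and *Mfap2* (ratio 1.02, interval 0.840 to 1.25) and for *Fbn2* and *Mfap5* (ratio 1.09, interval 0.961 to 1.24). For the other pairs it did not. The largest step between neighbours was from *Efemp2* to *Eln* (ratio 3.23, interval 3.02 to 3.45), followed by that from *Fbln2* to *Mfap4* (ratio 2.40, interval 1.99 to 2.90).

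**Figure D3:**
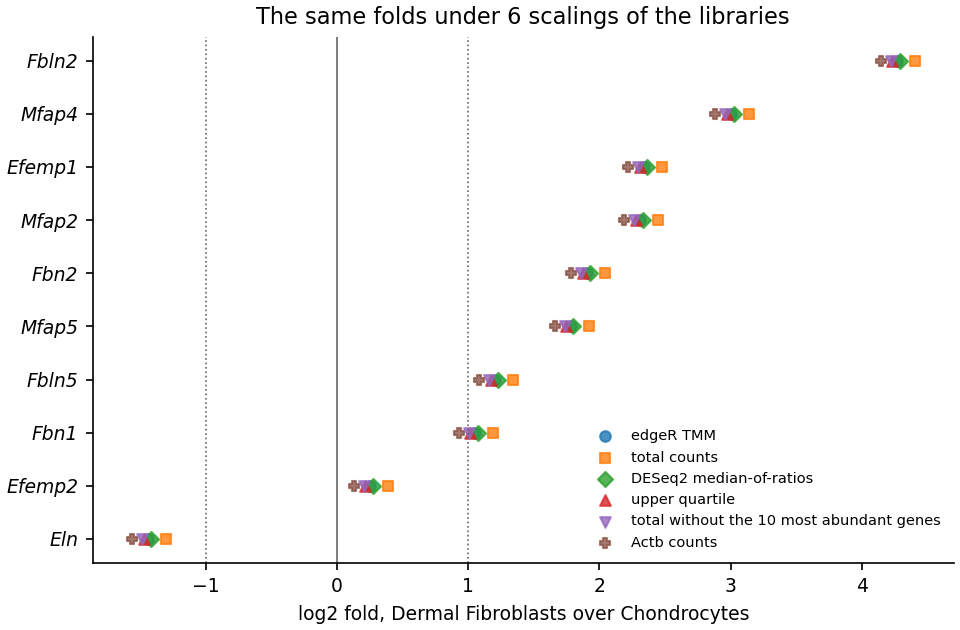
log2 folds of the 10 genes under 6 scalings of the libraries, with dotted lines at 2-fold. The points of a gene shift together, and *Fbn1* alone has points on both sides of a dotted line, at 1.90-fold with *Actb* and 2.28-fold with total counts.

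In chondrocytes *Fbn1* took 48.8% of the counts of the 10 genes, *Efemp2* 18.3%, *Eln* 11.2% and *Fbln2* 7.85%. In dermal fibroblasts *Fbln2* took 46.2%, *Fbn1* 31.0%, *Fbn2* 6.94%, *Efemp2* 6.68% and *Eln* 1.26%. The leading gene was thus *Fbn1* in chondrocytes and *Fbln2* in dermal fibroblasts, and *Eln* held the 3rd largest share in chondrocytes only.

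Longer transcripts give more reads, so levels of different genes were compared per kilobase of exon (scaled CPM per kilobase, with exon lengths of GENCODE vM1). On this scale *Efemp2* was highest in chondrocytes at 146, followed by *Eln* at 90.9, *Fbn1* at 84.7 and *Fbln2* at 28.1. *Fbln5* stood at 16.8, *Efemp1* at 14.7 and *Fbn2* at 12.1, and the 3 microfibril protein genes were lowest, down to 5.56 for *Mfap5* and 3.63 for *Mfap4*. In dermal fibroblasts *Fbln2* was highest at 541, and *Fbn1* at 175 and *Efemp2* at 173 followed with nearly equal levels. *Efemp1* stood at 74.3, *Fbn2* at 45.5, *Fbln5* at 38.7, *Mfap2* at 34.7, *Eln* at 33.5, *Mfap4* at 29.1 and *Mfap5* at 19.1. Per kilobase, *Eln* was the 2nd of the 10 genes in chondrocytes and the 8th in dermal fibroblasts. With the length of the longest transcript in place of all exons, *Eln* kept both ranks, 8 of the 10 genes kept their rank in chondrocytes and 6 in dermal fibroblasts, where *Efemp2* then stood above *Fbn1*. *Mfap5* then stood above *Mfap2* in chondrocytes, so the order of the MAGP genes there also depended on which length was used.

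**Figure D4:**
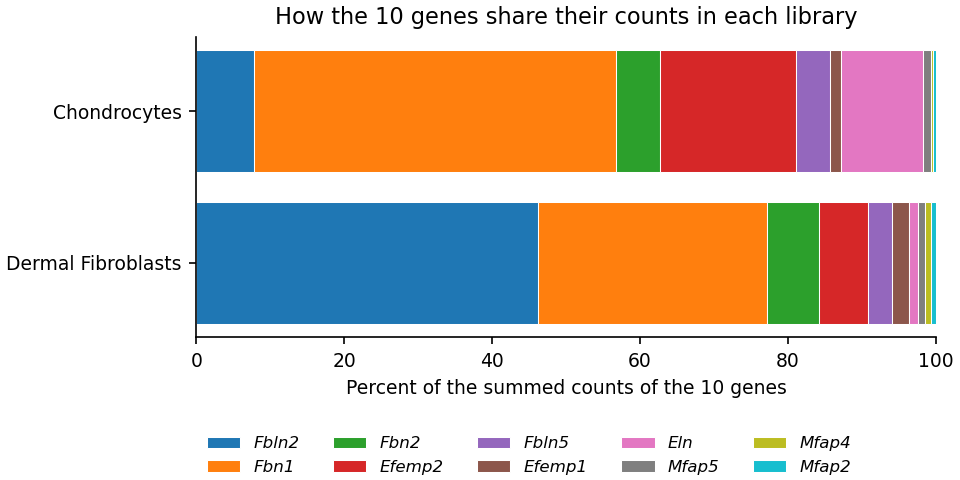
Percent of the summed counts of the 10 genes taken by each gene, with 1 bar per library. *Fbn1* fills 48.8% of the chondrocyte bar, *Fbln2* fills 46.2% of the dermal fibroblast bar, and *Eln* fills 11.2% of the first and 1.26% of the second.

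Genes that act with the 10, or share the *Mfap* name, were listed by role. Of the 65 names 62 were found, the other 3 being synonyms of listed genes. Of the 62 genes, 23 exceeded 2-fold toward dermal fibroblasts, 18 exceeded it toward chondrocytes and 21 lay within 2-fold. Over all 17718 genes with a count in at least 1 library, 13.9% and 10.7% exceeded 2-fold in these directions. The same shares stand beside the counts of each list below. The median log2 fold was 0.03 over the 59 pathway genes with at least 10 counts, and the medians of the roles lay on both sides of 0. With scaling to total counts 16 in place of 18 were higher in chondrocytes, since *Ltbp4* and *Fkbp10* dropped below 2-fold, and with *Actb* 22 in place of 23 were higher in dermal fibroblasts, since *Ctsl* did.

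Among the elastin crosslinking enzymes, *Lox* (2.93-fold) and *Loxl1* (3.14-fold) were higher in dermal fibroblasts, and *Loxl3* (12.9-fold) and *Loxl4* (35.2-fold) were higher in chondrocytes. *Loxl2* lay within 2-fold, at 1.30-fold toward chondrocytes. *Eln* thus lay in the direction opposite to *Lox* and *Loxl1* and in that of *Loxl3* and *Loxl4*. The 5 enzymes summed to 5634 scaled CPM in chondrocytes and 3002 in dermal fibroblasts. The list of other elastic fiber glycoproteins was divided as well. It also holds *Mfap3l* and other genes of the *Mfap* name, whose place in elastic fibers was not examined. Of its 12 genes 3 were higher in dermal fibroblasts, namely *Emilin2* (4.19-fold), *Fbln1* (3.95-fold) and *Hmcn1* (5.33-fold), and 5 were higher in chondrocytes. These 5 included *Emilin1* (5.95-fold), an elastin-associated glycoprotein, *Fn1* (5.96-fold), on which microfibrils assemble, and *Mfap3l* (2.36-fold). *Fbln7*, a further fibulin gene, was 90.1-fold higher in chondrocytes, with 1316 counts against 15 (interval 54.4 to 161), the opposite direction to the 4 fibulin genes above. The last of the 5 was *Emilin3*, with 13 chondrocyte counts and 0 dermal fibroblast counts.

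Of 11 genes of the growth factor system that microfibrils tether, 7 were over 2-fold higher in chondrocytes and 1 in dermal fibroblasts. Of the latent TGF-β binding proteins, 3 of 4 were over 2-fold higher in chondrocytes, at 2.45-fold for *Ltbp1*, 3.24-fold for *Ltbp3* and 2.04-fold for *Ltbp4*, and *Ltbp2* lay within 2-fold (6226 against 3557 counts). Among the ligands, *Tgfb2* (6.75-fold), *Bmp7* (7.14-fold), *Bmp2* (7.87-fold) and *Gdf5* (29.3-fold, with 114 counts against 4) were higher in chondrocytes, *Tgfb1* was 3.39-fold higher in dermal fibroblasts, and *Tgfb3* was within 2-fold at 1.20. With total counts *Ltbp4* dropped below 2-fold. Of 9 fibrillin-binding ADAMTS and ADAMTS-like genes, 4 exceeded 2-fold toward dermal fibroblasts, namely *Adamtsl5* (11.6-fold), *Adamtsl2* (9.79-fold), *Adamts6* (2.42-fold) and *Adamts19* (1 against 43 counts). Higher in chondrocytes were *Adamtsl3* (3.80-fold), *Adamtsl4* (3.39-fold) and *Thsd4* (2.41-fold), and *Adamts10* lay within 2-fold at 1.52.

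The elastin-degrading proteases differed in 1 direction. Of 9 genes, 7 exceeded 2-fold toward dermal fibroblasts, and *Elane* and *Mmp7* had 3 counts or fewer in each library. The membrane-type metalloproteinase *Mmp14* (6.35-fold), the gelatinases *Mmp9* (4.51-fold) and *Mmp2* (2.96-fold), the macrophage elastase *Mmp12* (2.66-fold) and the cathepsins *Ctsk* (8.63-fold), *Ctss* (2.94-fold) and *Ctsl* (2.12-fold) made up the 7. Among 11 receptor genes, dermal fibroblasts had the higher level by over 2-fold for 6 and chondrocytes for 0. They included the genes of the elastin receptor complex, *Neu1* (3.77-fold), *Ctsa* (3.29-fold) and *Glb1* (2.45-fold), and the integrin genes *Itgb3* (5.04-fold), *Itga8* (2.70-fold) and *Itgav* (2.32-fold), which bind RGD motifs. *Itgb1* and *Itgb5* were within 2-fold, at 1.62 and 1.43. Of 5 processing and modification genes, *Fkbp10*, a chaperone of tropoelastin and collagen, was 2.08-fold higher in chondrocytes, and the others, such as *Furin* (1.02-fold, interval 0.971 to 1.07) and *Asph* (1.31-fold toward chondrocytes), lay within 2-fold.

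**Figure D5:**
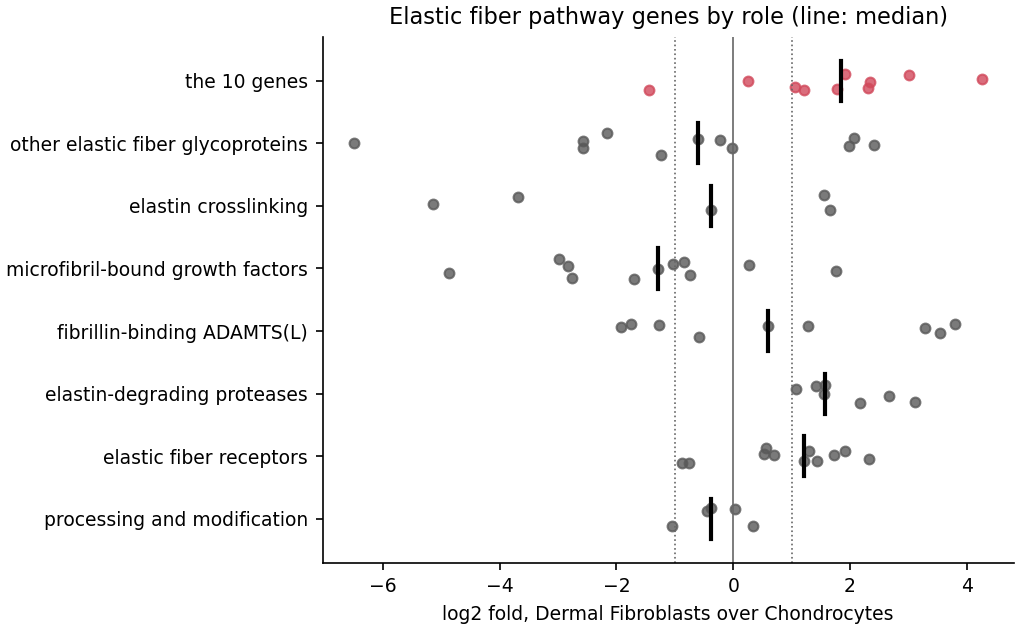
log2 folds, dermal fibroblasts over chondrocytes, of the 10 genes and of the pathway genes with at least 10 counts in 1 library, by role, with a line at each median and dotted lines at 2-fold. The medians run from -1.29 for the microfibril-bound growth factors to 1.56 for the proteases and 1.84 for the 10 genes.

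Transcripts of other cell types were also measured, by lists of markers, and their part in the folds above was not tested. Smooth muscle cells make elastic fibers in vessel walls. The smooth muscle and pericyte list had 6 of 10 markers over 2-fold higher in dermal fibroblasts and 1 in chondrocytes. It summed to 1564 scaled CPM in chondrocytes and 3205 in dermal fibroblasts, with *Acta2* at 506 and 1400 and *Pdgfrb* at 207 and 1057. Fibroblasts in culture can express both genes. *Myh11*, a myosin of differentiated smooth muscle, had 140 counts in chondrocytes against 707. Of the pericyte markers, *Cspg4* (604 and 162), *Notch3* (81.3 and 41.1) and *Rgs5* (2.68 and 1.79) had the higher scaled CPM in chondrocytes. The difference was over 2-fold for *Cspg4* alone, and the counting interval of *Rgs5* included no difference. *Mcam* (26.9 and 65.4), like *Pdgfrb*, was over 2-fold higher in dermal fibroblasts. Of 8 endothelial markers, 7 were over 2-fold higher in dermal fibroblasts, with sums of 16.1 and 55.1 scaled CPM. The most abundant markers, by which each list is described as led, were *Kdr* and *Cdh5* for this one. The keratinocyte list (6 of 9 higher) summed to 9.15 and 263, led by *Krt14* and *Krt5*. The adipocyte list (4 of 6 higher) summed to 141 and 407, led by *Fabp4* and *Adipoq*. The 4 adipocyte markers include *Lep*, near the floor with 1 count in chondrocytes against 7. The macrophage list (2 of 7 higher) summed to 107 and 171, led by *Lyz2* and *Cd68*, which lay within 2-fold. The 2 higher markers were *Csf1r* (2.62-fold) and *Fcgr1* (4 counts in chondrocytes against 31).

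Other lists had a higher sum in chondrocytes, and which cells of that library held these transcripts was not tested. The tendon list (4 of 6 higher in chondrocytes and 1 in dermal fibroblasts) summed to 910 and 84.7, led by *Fmod* and *Thbs4*. *Fmod* alone stood at 687 and 57.1. The tendon markers other than *Fmod* and *Thbs4* stood at 8.93 or less in chondrocytes. The osteoblast list (6 of 7) summed to 669 and 238, led by *Spp1* and *Runx2*. *Runx2*, at 1.39-fold toward chondrocytes, was not among the 6. The 6 include *Bglap*, near the floor with 6 counts in chondrocytes against 0. The skeletal muscle list summed to 1972 and 1379, and the 5 of its 10 markers over 2-fold higher in chondrocytes were *Tnnt3*, *Myod1*, *Myog*, *Pax7* and *Des*. Its most abundant markers lay within 2-fold, *Actc1* at 407 and 433 and *Myh3* at 434 and 353 scaled CPM. The chondrocyte list summed to 119855 and 70.0, led by *Col2a1* and *Col11a1*, and the dermal fibroblast list to 6774 and 49316, led by *Col1a1* and *Col3a1*. In dermal fibroblasts *Col2a1*, *Lect1*, *Matn1* and *Bglap* stood at 0, and in chondrocytes *Kera* did.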

How the data were processed

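RNA-Seq counts of 1 chondrocyte and 1 dermal fibroblast library were analysed. Per the labels and the study's methods, the authors made stranded mRNA libraries, called bases with CASAVA 1.8.2 and mapped single-end reads to mm10 (TopHat2 2.0.13, Bowtie2 2.2.3, SAMtools 0.1.19). The deposited table holds unnormalized counts by gene symbol. The counting program, annotation and strand setting are not given in the sources used here, so reads of overlapping genes may be shared. In 27 rows the symbol had become a date, and these stayed in the totals.

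Scaling used edgeR 4.0.16 TMM factors (0.954 for chondrocytes, 1.05 for dermal fibroblasts) in R 4.3.3. For folds, lower counts were raised to 3. The 95% intervals are Clopper-Pearson (Wald on the log scale for ratios of folds; Python 3.11.15, scipy 1.17.1) and cover counting error only, since PCR copies without identifiers are not separate molecules. No p-value was computed, and likeness of patterns was not measured with 2 libraries. Functions were tested on simulated data. Alternatives were other scalings (total counts, DESeq2 1.42.0 size factors, upper quartile, totals without the 10 most abundant genes, *Actb*), floors of 1 or 10, a pseudocount, a filter at 10 counts and stricter thresholds.

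All 10 genes are named. From pathway lists come the 3 most abundant genes and those over 2-fold apart with at least 100 counts, and from marker lists the leading pair. *Elane*, *Mmp7*, *Emilin3*, *Adamts19*, *Myh11*, *Cspg4*, *Notch3*, *Rgs5*, *Mcam*, *Lum*, *Prrx1*, *Csf1r*, *Fcgr1* and *Lep* were added after their values were seen. So were the 5 skeletal muscle markers over 2-fold apart and the markers at 0. The genes and lists were chosen with earlier results of these data known. Positions and sequences are RefSeq GRCm38.p6, the assembly mm10 names, and exon lengths GENCODE vM1.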

Additional observations from a re-analysis of the deposited data

How the results depend on the processing

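No paired analysis was possible because there was 1 library of each kind, and none could be left out. The number of the 10 genes over 2-fold higher in dermal fibroblasts was 8 under each alternative except *Actb* scaling, which gave 7 by taking *Fbn1* to 1.90-fold, and a fold over 4, which gave 4 by its stricter threshold. *Eln* was over 2-fold higher in chondrocytes under each alternative except the fold over 4, which gave 0. Of 90 values of the 10 folds under 9 alternatives, 15 left the counting interval and 0 changed direction. All 15 came from the 5 alternative scalings. The floors and the filter at 10 counts could not move these folds, since each of the 10 genes had at least 125 counts in each library. The median log2 fold went from 1.84 to 1.98 with total counts and 1.72 with *Actb*. The fold of the summed counts went from 3.27 to 3.59 with total counts, 3.31 with DESeq2 factors, 3.19 with the upper quartile, 3.16 without the most abundant genes, 3.002 with *Actb* and 1.91 without *Fbln2*, a sum added after the data were seen. Total counts moved the log2 folds of all genes by 0.14 and *Actb* moved them by -0.12.

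Per kilobase of exon, the share of *Fbn2* in the fibrillin counts was 12.5% in chondrocytes and 20.6% in dermal fibroblasts, that of *Efemp1* in its pair 9.14% and 30.0%, and that of *Mfap2* in its pair 55.7% and 64.5%. With a fold over 4, the pathway genes higher in dermal fibroblasts went from 23 to 9 and those higher in chondrocytes from 18 to 10. Over all genes, the 2468 genes higher in dermal fibroblasts became 929 with a fold over 4, 1546 with intervals wholly beyond 2-fold and 1485 with at least 100 counts (added after the data were seen). The 1887 genes higher in chondrocytes became 713, 1041 and 981, and 2874 with a pseudocount of 1. Stricter thresholds and filters lower these counts by construction. Depth limits *Mfap2* and *Mfap4* most, which had 152 and 125 counts in chondrocytes.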
